A study of Rattus norvegicus with 16 samples.

Results

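Myelin is the stack of membrane that oligodendrocytes wrap around axons in the central nervous system, and its structural proteins hold the layers together, seal their edges and attach the innermost layer to the axon. Their genes are switched on, some earlier than others, as a progenitor becomes a mature oligodendrocyte, under transcription factors such as Sox10, Olig2 and Myrf. Their transcripts are therefore widely read as a sign of maturation. FGF2, a heparin-binding growth factor, is known as a mitogen of oligodendrocyte progenitors. The genes described here are 9 myelin structural proteins chosen by name, namely Mog, Opalin, Mag, Mobp, Cnp, Mal, Tspan2, Cldn11 and Ermn. Of these 9, 7 had a transcript cluster (the probes of 1 transcript, summarized to 1 value) whose only gene symbol was theirs, each with a single cluster, among 14557 genes in all. Mobp and Ermn had no cluster named in the annotation used and are not analysed here.

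The study asked how FGF2, and a variant of it with selective receptor use, alter gene expression in cultures that myelinate in the dish. Spinal cord cells of E15.5 Sprague-Dawley rat embryos were grown on astrocytes derived from neurospheres of P1 rat striatum, so that the RNA is a mixture from neurons, oligodendrocytes, astrocytes and microglia, and each group was represented by 4 arrays. The humanFGF2 cultures received recombinant human FGF2 at 100 ng/ml. The F2V2 cultures received, at 100 ng/ml, a recombinant FGF2 that lacks an N-terminal stretch of the protein. The wtFGF2 cultures received a protein that the labels name only so, at a dose the sources used here do not state, so that it cannot be matched to the others. Control cultures were untreated, and shared the strain, the astrocyte layer and the age of the treated ones. Ligands were added after 18 days in vitro, and RNA was collected 24 h later from all groups.

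Values are on the log2 scale, where a difference of 1 is a doubling, and were compared with limma over 15653 transcript clusters with Benjamini-Hochberg adjustment. To be called, a cluster had to differ by 1.4-fold or more with an adjusted p below 0.05. The medians of the 16 arrays over all clusters lay between 5.81 and 5.92, and the lowest correlation between arrays of a group was 0.991. One source describes the 4 arrays of a group as independent cultures and another as technical replicates, so a p-value reflects array-to-array spread and may not cover separate cultures. Probes of different genes bind differently, so levels are compared between groups and never between genes.

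Promoter sequence is shown as background, because Myrf, a transcription factor required for myelination, binds near many myelin genes. The part of Myrf in the differences between groups was not tested. Of the 7 measured genes, 6 matched by symbol a promoter in the RefSeq table of assembly GRCr8 (Mog did not), and the 250 bases before the start of each gene were searched on both strands for the Myrf core CTGGNAC. It was present in 5 of the 6, all but Tspan2 (5 of 7 with Mobp, which was not measured), and in 14.8% of 33465 promoters of the table over the same stretch. Capitals mark the core, which reads CTGGNAC in Mag and Cnp and as its reverse complement in Opalin, Mal and Cldn11, with up to 40 bases on each side. Sequences run 5′ to 3′ on the strand of the gene.
Opalin, chr1:249858191-249858247, minus strand: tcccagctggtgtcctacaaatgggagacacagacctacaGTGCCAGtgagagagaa
Mag, chr1:95291092-95291178, minus strand: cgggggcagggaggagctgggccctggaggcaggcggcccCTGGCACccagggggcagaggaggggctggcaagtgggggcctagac
Cnp, chr10:86011340-86011426, plus strand: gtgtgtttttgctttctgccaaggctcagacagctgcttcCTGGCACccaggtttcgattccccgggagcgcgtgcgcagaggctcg
Mal, chr3:135341503-135341589, minus strand: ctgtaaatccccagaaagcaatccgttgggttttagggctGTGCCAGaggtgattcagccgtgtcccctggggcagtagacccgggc
Cldn11, chr2:114149613-114149699, minus strand: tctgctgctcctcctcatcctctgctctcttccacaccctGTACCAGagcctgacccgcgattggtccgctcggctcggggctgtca
In Opalin the core ended 10 bases before the annotated start, in Mag 87, in Cldn11 113, in Cnp 117 and in Mal 119. The SOX core ACAANG was found in 3 of the 6 promoters (4 of 7 with Mobp), against 36.9% of the table, and the E-box CAGNTG in 3 of the 6 (3 of 7 with Mobp), against 43.3%. No match of the Myrf core overlapped a match of either of the others. These are matches of letters in a short window and not sites of binding.

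In cultures treated with humanFGF2, all 7 measured myelin proteins had lower transcript levels than in Control cultures, from 1.41-fold lower for Cnp to 8.21-fold lower for Mal. All 7 were called lower, against 8.59% of all clusters tested, and none was called higher, against 10.5%. In all 7 every humanFGF2 array lay below every Control array, against 21% of all clusters. Against the same Control arrays, 3 of 7 were called lower with F2V2, against 3.6% of all clusters, and 6 of 7 with wtFGF2, against 5.92%. In a mixed culture, fewer oligodendrocytes, less RNA per oligodendrocyte and a larger share of RNA from other cells cannot be told apart.

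**Figure D1:**
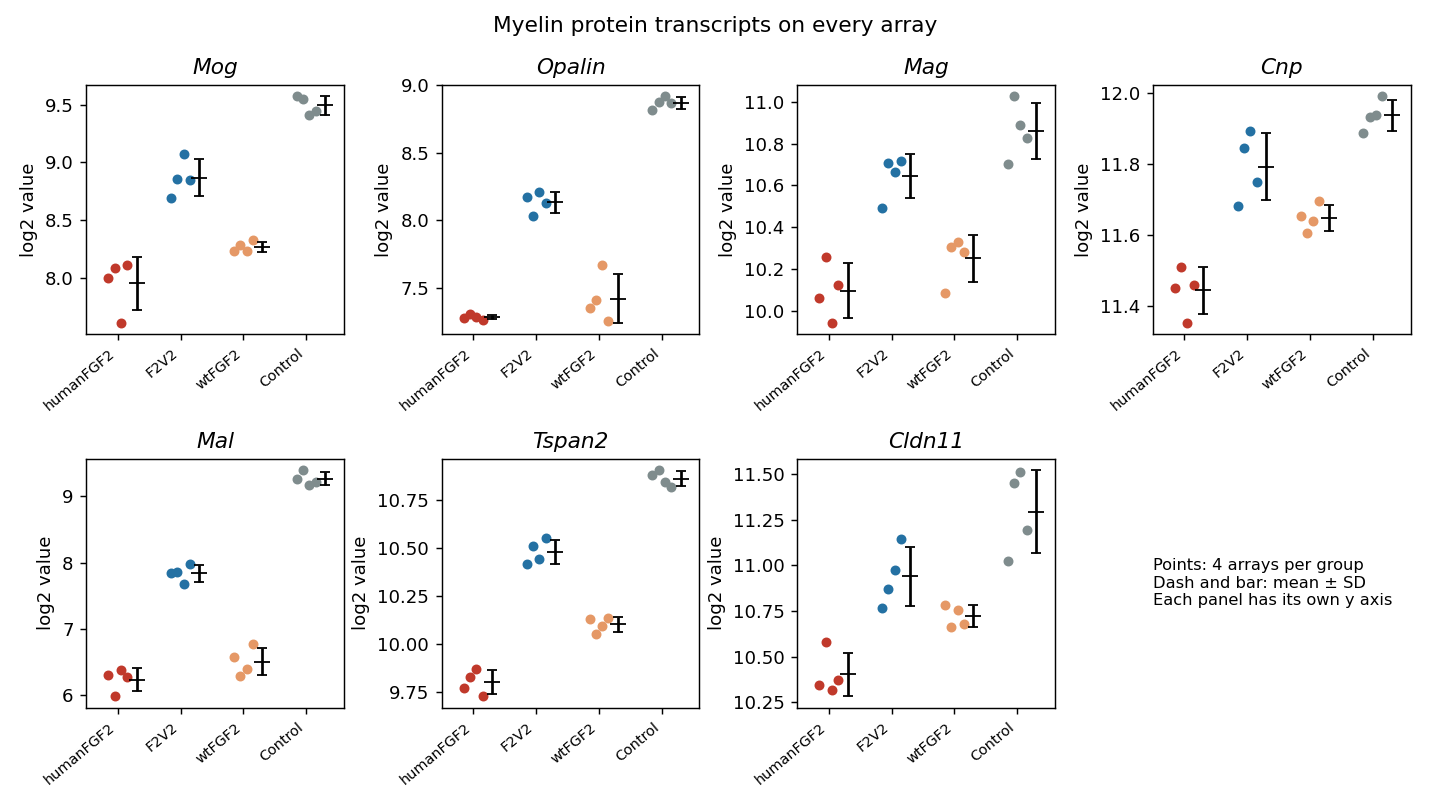
Log2 values of the 7 measured myelin protein transcripts on each of the 16 arrays, 1 panel per gene with its own y axis, for humanFGF2, F2V2, wtFGF2 and Control. Points are arrays, and the dash and bar are the group mean ± SD (n = 4). In every panel humanFGF2 has the lowest mean, followed by wtFGF2, F2V2 and Control, and no humanFGF2 point reaches a Control point.

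Mal, a small proteolipid of lipid rafts that sorts membrane cargo to the myelin sheath, had the largest difference of the 7 in each of the 6 comparisons except wtFGF2 against humanFGF2. It read 6.29, 5.98, 6.37 and 6.27 in humanFGF2 cultures, 7.84, 7.86, 7.67 and 7.98 in F2V2 cultures, 6.57, 6.29, 6.39 and 6.76 in wtFGF2 cultures, and 9.27, 9.40, 9.17 and 9.23 in Control cultures. The Control arrays were highest and F2V2 stood alone in the middle, while the humanFGF2 and wtFGF2 arrays overlapped at the bottom, near the array medians. Against Control, Mal fell by 3.04 on the log2 scale with humanFGF2 (SE 0.089, adjusted p = 3.13e-11), the 7th lowest estimate of all 15653 clusters. It fell by 1.43 with F2V2 (SE 0.089, adjusted p = 1.01e-07) and had a difference of -2.76 with wtFGF2 (SE 0.10, adjusted p = 4.46e-12). No cluster of the 15653 had a lower estimate than Mal in wtFGF2 against Control.

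Tspan2 encodes a tetraspanin of the myelin membrane. Its values were 9.77, 9.83, 9.87 and 9.73 in humanFGF2 cultures, 10.42, 10.51, 10.44 and 10.55 in F2V2 cultures, 10.13, 10.05, 10.09 and 10.14 in wtFGF2 cultures, and 10.88, 10.91, 10.84 and 10.82 in Control cultures. The 4 groups did not overlap with each other at all, and the arrays of a group lay within a narrow band. Tspan2 fell by 1.06 with humanFGF2 (SE 0.050, adjusted p = 1.96e-09) and by 0.76 with wtFGF2 (SE 0.048, adjusted p = 2.80e-09). With F2V2 the difference from Control was -0.38 (SE 0.050, adjusted p = 6.92e-05), which passed the adjusted p but was under 1.4-fold.

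Cldn11 encodes a claudin that forms the tight junctions between layers of central myelin. It read 10.34, 10.58, 10.32 and 10.37 in humanFGF2 cultures, 10.77, 10.87, 10.98 and 11.15 in F2V2 cultures, 10.79, 10.66, 10.76 and 10.68 in wtFGF2 cultures, and 11.02, 11.45, 11.51 and 11.19 in Control cultures. Control arrays were spread more widely for this gene than for the other 6, with an SD of 0.23, and the highest F2V2 array passed the lowest Control array. Cldn11 fell by 0.89 with humanFGF2 (SE 0.11, adjusted p = 1.57e-05) and by 0.57 with wtFGF2 (SE 0.10, adjusted p = 0.000217). With F2V2 its difference of -0.35 (SE 0.11, adjusted p = 0.0243) was under 1.4-fold.

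On the surface of the sheath, Mog encodes an immunoglobulin-like protein of the outermost layer that is used as a marker of late maturation and is a target in autoimmune demyelination. Mog read 8.01, 8.09, 7.62 and 8.11 in humanFGF2 cultures, 8.70, 8.86, 9.08 and 8.85 in F2V2 cultures, 8.23, 8.28, 8.24 and 8.33 in wtFGF2 cultures, and 9.57, 9.55, 9.41 and 9.45 in Control cultures. The 4 groups did not overlap, and humanFGF2 replicate 3 was the lowest array. Mog fell by 1.54 with humanFGF2 (SE 0.11, adjusted p = 6.27e-08), by 0.62 with F2V2 (SE 0.11, adjusted p = 0.000499) and by 1.22 with wtFGF2 (SE 0.096, adjusted p = 3.69e-08).

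Opalin, a sialylated membrane glycoprotein of mammalian oligodendrocytes, followed the same order. It read 7.28, 7.30, 7.29 and 7.26 in humanFGF2 cultures, 8.17, 8.03, 8.21 and 8.13 in F2V2 cultures, 7.35, 7.41, 7.67 and 7.26 in wtFGF2 cultures, and 8.82, 8.87, 8.92 and 8.87 in Control cultures. The humanFGF2 arrays had an SD of 0.016, and 1 wtFGF2 array lay as low as these while the other 3 lay above them. Opalin fell by 1.59 with humanFGF2 (SE 0.049, adjusted p = 4.70e-11), by 0.74 with F2V2 (SE 0.049, adjusted p = 1.78e-07) and by 1.45 with wtFGF2 (SE 0.071, adjusted p = 1.21e-10).

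Mag encodes an adhesion molecule of the innermost myelin layer that faces the axon. It read 10.06, 10.26, 9.94 and 10.12 in humanFGF2 cultures, 10.49, 10.71, 10.66 and 10.71 in F2V2 cultures, 10.08, 10.30, 10.33 and 10.28 in wtFGF2 cultures, and 10.70, 11.03, 10.89 and 10.83 in Control cultures. The F2V2 and Control arrays overlapped, as did those of humanFGF2 and wtFGF2, and the lower pair of groups stayed below the upper pair. Mag fell by 0.76 with humanFGF2 (SE 0.083, adjusted p = 4.45e-06) and by 0.61 with wtFGF2 (SE 0.082, adjusted p = 1.45e-05). With F2V2 the difference was -0.22 (SE 0.083, adjusted p = 0.0617), with a 95% confidence interval, not adjusted for the number of clusters, of -0.39 to -0.04.

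Cnp encodes a cyclic nucleotide phosphodiesterase that keeps the cytoplasmic channels of non-compact myelin open and appears early in the lineage. It read 11.45, 11.51, 11.35 and 11.46 in humanFGF2 cultures, 11.68, 11.84, 11.89 and 11.75 in F2V2 cultures, 11.65, 11.61, 11.64 and 11.69 in wtFGF2 cultures, and 11.89, 11.93, 11.94 and 11.99 in Control cultures. Its groups lay closest together of the 7 genes, and F2V2 overlapped with both wtFGF2 and Control. Cnp fell by 0.49 with humanFGF2 (SE 0.057, adjusted p = 7.67e-06), only just past 1.4-fold. The call was lost without humanFGF2 replicate 3 (-0.46) or Control replicate 4 (-0.48) and when array medians were subtracted (-0.44). Against Control, the differences of -0.29 with wtFGF2 (SE 0.053, adjusted p = 0.000304) and -0.14 with F2V2 (SE 0.057, adjusted p = 0.0678, 95% interval -0.27 to -0.02) were under 1.4-fold.

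Taking F2V2 against Control as a set of genes, the 3 called lower (Mal, Opalin and Mog) stood against 3.6% of all clusters, and none was called higher, against 5.76%. At the adjusted p alone, 5 of 7 were lower, against 16% of clusters, and in 4 of 7 the F2V2 and Control arrays did not overlap, against 15%. The fifth of these, Cldn11, missed the adjusted p with all clusters tested (0.0510), in a linear model without variance moderation (0.0580), and in limma without Control replicate 2 (0.0740), Control replicate 3 (0.0774), F2V2 replicate 1 (0.0704) or F2V2 replicate 2 (0.0637). Mag passed it in the fit with a replicate block (0.0252) and under 3 other alternatives, and Cnp under 5, both still under 1.4-fold. The median difference of the 7 genes was -0.38 with F2V2 and -1.06 with humanFGF2, beside 0.01 and 0.02 over all clusters tested. Both comparisons use the same Control arrays.

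The direct comparison of humanFGF2 with F2V2, at the same dose and time, does not use the Control arrays for its difference. All 7 transcripts were lower with humanFGF2 and the 2 groups did not overlap for any of them, against 11.2% of all clusters. Called lower were 6 of 7, against 2.91% of clusters, and none was called higher, against 2.89%. Mal had the largest difference, -1.61 (SE 0.089, adjusted p = 9.95e-08), or 3.05-fold lower with humanFGF2. Mog (-0.91, SE 0.11, adjusted p = 4.47e-05) and Opalin (-0.85, SE 0.049, adjusted p = 1.25e-07) came next. Tspan2 differed by -0.68, Mag by -0.55 and Cldn11 by -0.54, and the call of Cldn11 was lost without F2V2 replicate 4 (-0.47, adjusted p = 0.0118). Cnp differed by -0.35 (SE 0.057, adjusted p = 0.000633), under 1.4-fold. The median over the 7 genes was -0.68, beside 0.02 over all clusters.

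**Figure D2:**
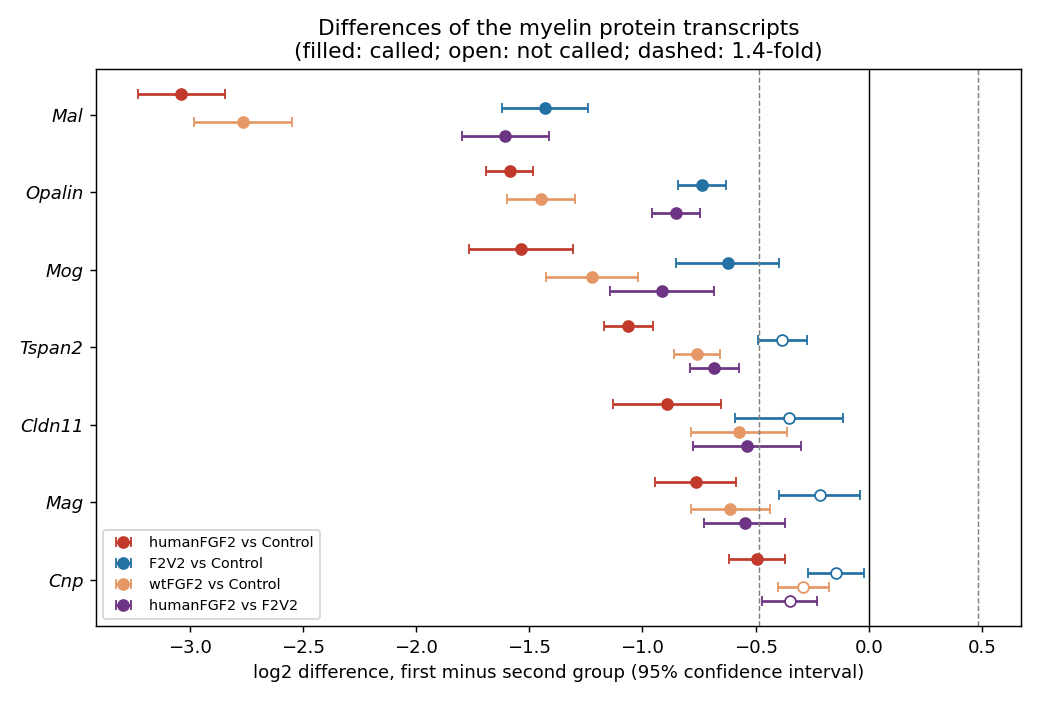
Log2 differences of the 7 myelin protein transcripts with their 95% confidence intervals, for humanFGF2, F2V2 and wtFGF2 against Control and for humanFGF2 against F2V2 (first minus second group, n = 4 arrays each). Filled points were called and open points were not, the dashed lines mark 1.4-fold, and every point lies left of 0, with Mal farthest left.

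The wtFGF2 cultures had 6 of 7 transcripts called lower than Control, all but Cnp, against 5.92% of all clusters. The wtFGF2 arrays lay below the Control arrays without overlap for all 7, against 17.7%, and the median difference was -0.76, beside 0.03 over all clusters. Set against F2V2, wtFGF2 had 3 of 7 called lower, against 0.894% of clusters. These were Mal (-1.33, SE 0.10, adjusted p = 2.69e-06), Opalin (-0.71, SE 0.071, adjusted p = 2.28e-05) and Mog (-0.60, SE 0.096, adjusted p = 0.00153). At the adjusted p alone, Mag and Tspan2 joined them, making 5 of 7 against 2.24% of clusters, and the same 5 did not overlap, against 4.76%. Cnp (-0.14, 95% interval -0.26 to -0.03, adjusted p = 0.160) and Cldn11 (-0.22, interval -0.43 to -0.01, adjusted p = 0.283) did not pass the adjusted p. The median of the 7 was -0.40 in wtFGF2 against F2V2, beside 0.02 over all clusters.

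Against humanFGF2, all 7 transcripts had higher means with wtFGF2, by 0.14 for Opalin to 0.32 for Cldn11, and the median was 0.27, beside 0.00 over all clusters. None reached 1.4-fold, so 0 of 7 were called higher, against 0.696% of clusters. At the adjusted p alone 2 were higher, against 3.51%, namely Tspan2 (0.30, SE 0.048, adjusted p = 0.000592) and Cnp (0.20, SE 0.053, adjusted p = 0.0225). Cnp missed it when humanFGF2 replicate 1 or 3, or wtFGF2 replicate 1 or 4, was left out (0.0526 to 0.0758). Mog (0.0554) and Cldn11 (0.0664) passed it under some alternatives, still under 1.4-fold. The lowest were 0.0366 for Mog without F2V2 replicate 3 and 0.0338 for Cldn11 without Control replicate 1. At an unadjusted limma p under 0.05 there were 5, against 9.31%. The wtFGF2 arrays lay above the humanFGF2 arrays without overlap for 4 of 7 (Mog, Cnp, Tspan2 and Cldn11), against 6.9%. For Opalin the 95% interval ran from -0.01 to 0.29 and for Mag from -0.02 to 0.33, so both include 0. The dose of wtFGF2 is not known here, and its part in these differences was not tested.

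In all 7 genes the means were thus ordered, low to high, as humanFGF2, wtFGF2, F2V2 and Control. The share of all clusters with this order was not computed. The step between humanFGF2 and wtFGF2 passed the adjusted p in 2 genes, against 3.51% of all clusters in that direction. That between wtFGF2 and F2V2 passed it in 5, against 2.24%, and that between F2V2 and Control in 5, against 16%. Mag and Cnp were the exceptions in the last step, and Cldn11 depended there on single arrays.

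Across the 16 arrays the 21 pairs of these genes correlated at r = 0.879 to 0.977, with a median of 0.930, values that include the differences between group means. When the mean of its group was taken from each value, the 21 pairs ranged from -0.527 for Opalin and Mal to 0.697 for Mog and Cnp, with a median of 0.0973, and 11 of 21 were above 0. On humanFGF2 replicate 2, for example, 6 of 7 genes lay above their group mean while Mal was the lowest of its group, and on Control replicate 4 only Cnp lay above its mean.

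**Figure D3:**
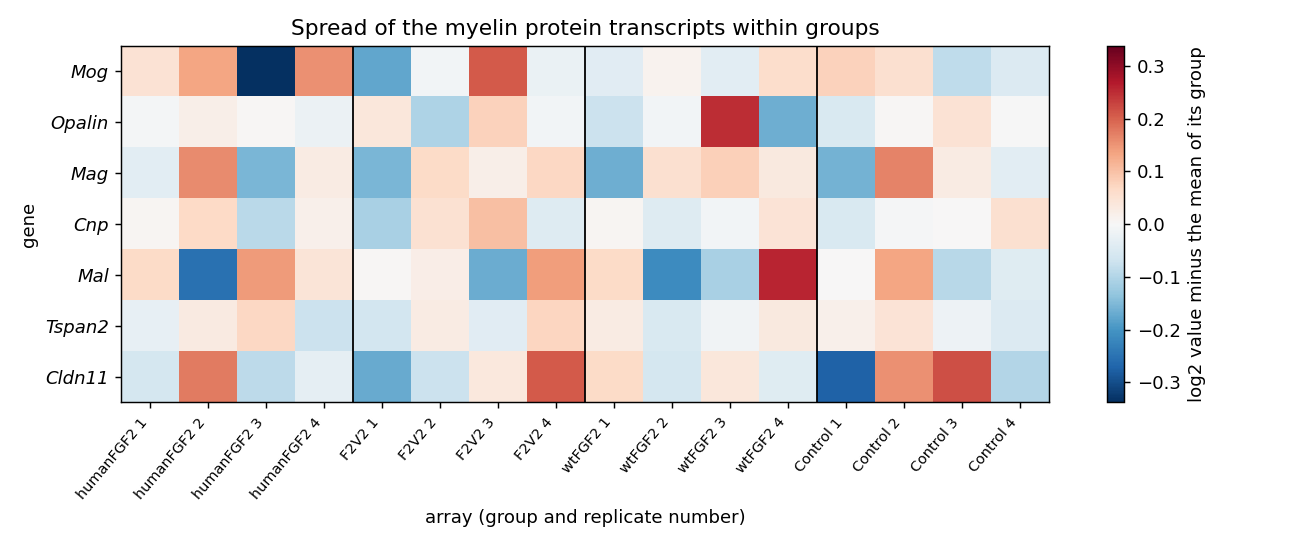
Log2 value of each myelin protein transcript minus the mean of its own group, for the 7 genes (rows) on the 16 arrays (columns, by group and replicate number). Red is above and blue below the group mean. Colours vary from gene to gene down most columns, and the deepest blue is Mog on humanFGF2 replicate 3.

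For each array the 7 genes were averaged after standardizing each over the 16 arrays, and this score was compared with 14550 other genes. The 8 genes most like it, with r over the 16 arrays, were Mgst1 (0.988), Fa2h (0.987), Tmod2 (0.985), Dbndd2 (0.984), Fnbp1 (0.983), Slc25a18 (0.980), Nrbp2 (0.980) and Vwa5b1 (0.979). With group means removed, the correlations of Dbndd2 (0.663), Fa2h (0.647), Nrbp2 (0.495) and Tmod2 (0.421) were the highest of the 8, and those of Mgst1 (0.03), Fnbp1 (0.18), Vwa5b1 (0.15) and Slc25a18 (-0.20) were lower. The arrays share treatments and, within a group, a culture system, so these values are descriptions.

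Other genes of mature oligodendrocytes were found on both sides of 0. Of 18 measured genes of that list, 6 were called lower and 2 higher with humanFGF2 against Control, with a median difference of -0.35. Of all clusters tested, 8.59% were called lower and 10.5% higher in that comparison. With F2V2, 2 of the 18 were called lower, against 3.6% of all clusters, with a median of -0.13. Among the 18, Cmtm5, a membrane protein related to Mal by its domain, fell by 1.12 with humanFGF2 (adjusted p = 2.35e-09). Its means were 9.93 with humanFGF2 and 10.68 with F2V2, against 11.05 in Control. Omg, a surface glycoprotein of oligodendrocytes and neurons, fell by 1.11 with humanFGF2 (adjusted p = 2.11e-09) and by 0.53 with F2V2 (adjusted p = 6.93e-06). The semaphorin Sema4d fell by 0.63 with humanFGF2 (adjusted p = 4.35e-06) and differed by -0.34 with F2V2, under 1.4-fold. The 2 higher genes were Car2, a carbonic anhydrase, which rose by 1.24 with humanFGF2 (adjusted p = 6.39e-05), and Hapln2, a link protein of the perinodal matrix, which rose by 0.72 (adjusted p = 0.000225).

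Enzymes that make the lipids of the sheath were split. Of 11 measured, 3 were lower and 2 higher with humanFGF2 against Control (median -0.09), beside 8.59% and 10.5% of all clusters. With F2V2, 1 was lower and 1 higher (median -0.05), beside 3.6% and 5.76%. The 3 lower ones were Aspa, which frees acetate from N-acetylaspartate for lipid synthesis (-1.36, adjusted p = 1.31e-07), Fa2h, which hydroxylates the fatty acids of myelin sphingolipids (-1.04, adjusted p = 4.13e-08), and Ugt8, which makes galactosylceramide (-0.95, adjusted p = 1.23e-07). With F2V2, Aspa fell by 0.61 (adjusted p = 0.000447), while Fa2h (-0.38) and Ugt8 (-0.31) were under 1.4-fold. The 2 higher ones were the ceramide synthase Cers2, which rose by 0.73 with humanFGF2 (adjusted p = 1.92e-07) and by 0.58 with F2V2 (adjusted p = 4.85e-06), and the fatty acid elongase Elovl1, which rose by 0.65 with humanFGF2 (adjusted p = 7.33e-07) and had 0.39 with F2V2, under 1.4-fold.

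The transcription factors of the lineage did not share one direction. Of 10 measured, 4 were lower and 0 higher with humanFGF2 against Control (median -0.37), beside 8.59% and 10.5% of all clusters. With F2V2, 0 were lower and 2 higher (median -0.07), beside 3.6% and 5.76%. Sox10, which drives myelin genes, fell by 0.55 with humanFGF2 (adjusted p = 0.000125) and differed by -0.31 with F2V2 (adjusted p = 0.0126), under 1.4-fold. Zfp488, a zinc finger factor that promotes differentiation, fell by 1.02 with humanFGF2 (adjusted p = 6.01e-08), and Sox8 fell by 0.54 (adjusted p = 9.11e-06). Myrf, whose core motif is printed above for 5 promoters, had a difference of -0.40 with humanFGF2 (adjusted p = 0.00729, under 1.4-fold) and of -0.06 with F2V2 (adjusted p = 0.721). Olig1 and Olig2, which mark all stages of the lineage, rose with F2V2, by 0.60 (adjusted p = 3.20e-05) and 0.73 (adjusted p = 3.41e-06). With humanFGF2 their differences were 0.18 (adjusted p = 0.0630) and 0.45 (adjusted p = 0.000101), both under 1.4-fold. Zeb2, a repressor of inhibitors of differentiation, differed by -0.33 with humanFGF2, also under 1.4-fold.

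Of 8 measured genes of progenitors and newly formed oligodendrocytes, 3 were lower and 1 higher with humanFGF2 against Control (median -0.44). Of all clusters, 8.59% were called lower and 10.5% higher. With F2V2, 2 were lower and 1 higher (median -0.14), beside 3.6% and 5.76% of all clusters. Gpr17, a receptor of cells about to differentiate, fell by 1.71 with humanFGF2 (adjusted p = 4.57e-10) and by 0.89 with F2V2 (adjusted p = 7.74e-07). C1ql1, a secreted C1q-like protein, fell by 1.25 with humanFGF2 and by 0.58 with F2V2. Cspg4, a chondroitin sulfate proteoglycan of progenitors, fell by 0.83 with humanFGF2 (adjusted p = 1.76e-06), with a difference of 0.00 with F2V2 (adjusted p = 0.994). Pdgfra, the receptor that carries the main mitogen of progenitors, had -0.42 with humanFGF2 (adjusted p = 0.00103, under 1.4-fold) and -0.09 with F2V2 (adjusted p = 0.459). Tmem100 rose by 0.82 with humanFGF2 and by 0.89 with F2V2.

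**Figure D4:**
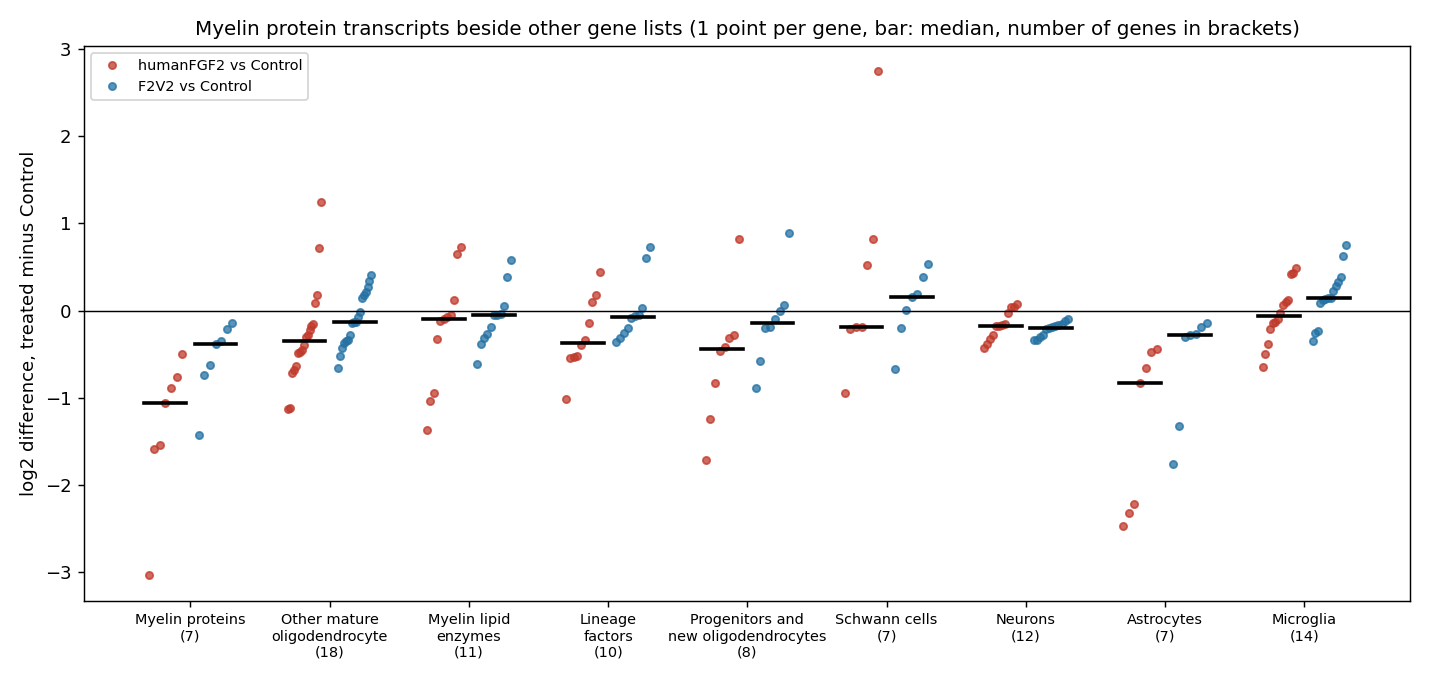
Log2 differences from Control of the genes of each list with humanFGF2 (red) and F2V2 (blue), 1 point per gene, with the median as a black bar and the number of measured genes in brackets. The medians of the 7 myelin proteins are -1.06 and -0.38, and no myelin protein lies above 0, whereas every other list but that of astrocytes holds genes above 0 with 1 or both ligands.

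Markers of other cells in the cultures moved unevenly with the same treatments. No neuronal gene was called in any of the 6 comparisons, with 12 measured and medians of -0.17 with humanFGF2 and -0.20 with F2V2 against Control. Of all clusters, 8.59% were called lower and 10.5% higher with humanFGF2 against Control, and 3.6% and 5.76% with F2V2. The shares were 1.28% and 0.696% in wtFGF2 against humanFGF2, and 0.894% and 0.524% in wtFGF2 against F2V2. At shares this low, the lack of a call among 12 genes says little. The mean of these 12 genes per array ran from 9.94 to 10.02 with humanFGF2 and 9.87 to 9.97 with F2V2, against 10.10 to 10.20 in Control. Of 7 measured astrocyte genes (Gfap and Aqp4 are not analysed here), 5 were lower and 0 higher with humanFGF2 (median -0.83). Of all clusters, 8.59% were called lower and 10.5% higher. With F2V2, 2 were lower (median -0.28), against 3.6% of all clusters. The mean of these 7 genes per array ran from 9.64 to 9.72 with humanFGF2 and 10.34 to 10.49 with F2V2, against 10.92 to 11.10 in Control. With humanFGF2, the gap junction gene Gjb6 had -2.48 (adjusted p = 2.70e-06, with a humanFGF2 mean of 4.39, among dim clusters), Cbs had -2.32 (adjusted p = 1.09e-10) and the potassium channel Kcnj10, which oligodendrocytes also express, had -2.22 (adjusted p = 1.98e-10). Falls were smaller for Gja1 (-0.83, adjusted p = 1.55e-08), S100b (-0.65), Slc1a3 (-0.47) and Aldoc (-0.44), with Slc1a3 and Aldoc under 1.4-fold. With F2V2, Gjb6 (-1.76) and Cbs (-1.32) were called, and Kcnj10 had -0.19 (adjusted p = 0.0922). Of 14 microglial genes, 2 were lower with humanFGF2, against 8.59% of all clusters, and 2 higher with F2V2, against 5.76%. Their medians were -0.06 and 0.15. Their mean per array ran from 8.43 to 8.62 with humanFGF2 and 8.69 to 8.81 with F2V2, against 8.41 to 8.78 in Control. Among the genes of all these lists, Gjb1, Gal3st1, Nkx6-2, Neu4, Prx, Slc17a7 and Isl1 were dim, with log2 means of 5 or less in Control.

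Schwann cells make peripheral myelin with some of the same proteins. Of 7 measured genes of that list, 1 was lower and 3 higher with humanFGF2 against Control, beside 8.59% and 10.5% of all clusters. The median difference was -0.19. The array means of the 7 ran the other way, from 8.49 to 8.59 with humanFGF2, against 8.11 to 8.25 in Control. Egr2, which is also an immediate early gene, rose by 2.75 with humanFGF2 (adjusted p = 1.15e-10). Gap43 rose by 0.82 (adjusted p = 1.69e-07), while Cdh19 fell by 0.95 (adjusted p = 9.19e-05). With F2V2, 1 gene of the list was lower and 1 higher, beside 3.6% and 5.76% of all clusters. The median was 0.15 and the array means were 8.18 to 8.31. The part of any of these cells in the values of the myelin genes was not tested.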

How the data were processed

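The 16 RNA samples were hybridized to rat whole-transcript Affymetrix arrays (Rat Gene 2.1 ST). Before depositing the data, the authors normalized probes by GCRMA and summarized them to log2 values per transcript cluster with a Tukey biweight, using Partek 6.6. These deposited log2 values ran from 3.02 to 14.5, and the number of arrays limits their precision. The deposited fold changes and p-values of the study's own comparisons were not used.

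Of 36685 clusters, the 15653 with a gene symbol were compared in limma 3.58.1 under R 4.3.3, using lmFit and eBayes. Comparisons without wtFGF2 came from a fit of the humanFGF2, F2V2 and Control arrays, and those with wtFGF2 from all 4 groups. Each of the 6 comparisons was adjusted over its own 15653 clusters by Benjamini-Hochberg. The script was tested on simulated data. Where a gene had several clusters, the one with the highest mean over the 16 arrays was taken.

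Myelin genes and gene lists were chosen with earlier results of these data known. Named besides the 7 are up to 3 genes per list with the lowest adjusted p in humanFGF2 against Control. Those of the neuronal and microglial lists are left out. Also named are the lineage genes Olig1, Olig2, Sox10, Myrf, Pdgfra, Cspg4 and Gpr17, and the 8 genes most like the average of the 7. Gjb6, S100b, Slc1a3, Aldoc, Car2, Hapln2, Cers2 and Elovl1 were named after their values were seen. Alternatives were fold thresholds, other normalizations, filters and variance models, other samples in the fit, a replicate block and each array left out.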

Additional observations from a re-analysis of the deposited data

How the results depend on the processing

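None of the differences of the 7 genes changed sign under the 11 alternatives or with any array left out. A fold threshold of 2 left 4 genes called lower for humanFGF2 against Control, 1 for F2V2 against Control, 1 for humanFGF2 against F2V2, 3 for wtFGF2 against Control and 1 for wtFGF2 against F2V2. The shares of all clusters called at a threshold of 2 were not computed, so these counts cannot be set against a background. With no fold threshold, 5 were lower for F2V2 against Control (16% of all clusters) and 5 were lower for wtFGF2 against F2V2 (2.24%). For wtFGF2 against humanFGF2, 2 were higher (3.51%). With array medians subtracted, the median of the 7 genes was -1.01 for humanFGF2 against Control. When single arrays were left out, the median ran from -0.45 (without Control replicate 1) to -0.36 for F2V2 against Control, and from 0.19 (without wtFGF2 replicate 4) to 0.31 for wtFGF2 against humanFGF2.

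No pairing of the arrays by replicate number was visible, although weak correlations cannot exclude that cultures of a number were prepared together. Over 24 pairs with the same number in 2 groups, deviations from group means correlated at -0.165 to 0.220, with 3 above 0.1. For each array, these correlations with the other groups were also averaged by replicate number. The array's own number had the highest average for 2 of 16 arrays. In the fit with the replicate number as a block, the counts of called genes were as before, 7 lower for humanFGF2 against Control, 3 for F2V2 against Control and 6 for humanFGF2 against F2V2, and no call of a single gene changed. These are 4 arrays a group of a mixed culture at a single time, and 2 of the 9 genes were not measured.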
